A study of Mus musculus with 7 samples.

Results

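Polyamines are small positively charged molecules, made in every animal cell, that bind nucleic acids and are needed for growth and translation. The 10 genes described here encode the enzymes that make, acetylate and oxidize them (Odc1, Amd1, Srm, Sms, Sat1, Smox and Paox) and the proteins that set the stability of the first enzyme (Azin1, Oaz1 and Oaz2). They are the rows of the deposited count table that carry these 10 gene symbols, of 54532 rows in all, and each symbol matched 1 row. The genes were listed with the DXZ against saline differences of these same libraries already known. Their differences are therefore given as a description, with fold changes and errors but no p-value of their own.

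Kidneys of C57BL/6J mice, 6 to 8 weeks old and male according to the design text of the series, were profiled by bulk RNA-seq. There were 3 DXZ libraries and 4 saline libraries. DXZ, an agent the labels name only by these letters, was given by tail vein at 40 mg/kg, 30 min ahead of cisplatin and then at intervals of 24 h over 3 days. Mice of both groups received cisplatin, a platinum drug that damages kidney tubules, at 20 mg/kg by tail vein, and no kidney free of cisplatin is used here. Whether each library is a different animal is not stated in the labels, so that errors and p-values describe how far these libraries spread, which may be technical.

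Total counts ran from 16243682 to 17498520 in DXZ libraries and from 16058157 to 18133736 in saline libraries. The libraries held kidney transcripts: all 20 proximal tubule markers examined passed the filter on low counts, and 9 were called lower in DXZ. For this and the marker counts that follow, 2.31% of all tested genes were called lower and 3.24% higher. The summed level of the 20 ran from 11555 to 15834 CPM (counts scaled to library size after TMM adjustment) in DXZ libraries and from 18277 to 44958 CPM in saline libraries. Of 12 injured tubule markers 5 were called higher, 11 had a positive log2 fold change and 1, Vcam1, a negative one. The sum of the 12 ran from 23147 to 37725 CPM in DXZ and from 8587 to 24546 CPM in saline. Spp1 made up most of that sum, at 16663 to 27621 CPM in DXZ and 6465 to 20087 CPM in saline. Spp1 was not called, and its groups overlapped (log2 fold change 0.47). DXZ 1 and saline 1 stood apart from the other libraries. Of 10 macrophage markers 2 were called higher (Cd68 and Cd14, neither of them highest in DXZ 1), and 4 had a negative log2 fold change. All 10 together summed to 435 CPM in DXZ 1, against 142 to 198 CPM in the other DXZ libraries and 148 to 263 CPM in saline. DXZ 1 was also the highest of all libraries in the sum of 8 fibroblast and mural markers, at 858 CPM against 87.0 to 130 CPM in the other DXZ libraries and 188 to 584 CPM in saline. The sum of 8 endothelial markers was 446 CPM in DXZ 1, against 102 to 157 CPM in the other DXZ libraries and 272 to 427 CPM in saline, and none of the fibroblast, mural or endothelial markers was called. Of 10 thick limb and distal tubule markers 3 were called lower, with sums of 1548 to 3516 CPM in DXZ and 2836 to 4857 CPM in saline. Of 9 collecting duct markers 8 were tested and 1, Fxyd4, was called higher. The 9 summed to 1010 to 2665 CPM in DXZ and 620 to 1512 CPM in saline. Saline 1 had the highest proximal tubule sum, of which Kap made up 18073.5 CPM, and the lowest injured tubule sum. In bulk tissue, fewer cells of a type and less RNA per cell cannot be told apart.

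Ornithine decarboxylase, encoded by Odc1, makes putrescine, the simplest polyamine. S-adenosylmethionine decarboxylase (Amd1) makes the aminopropyl donor that spermidine synthase (Srm) and spermine synthase (Sms) use to build spermidine and then spermine. On the way back, Smox oxidizes spermine directly, while Sat1 acetylates spermine and spermidine and Paox oxidizes the acetylated forms. Both oxidases release hydrogen peroxide and an aldehyde. Antizymes, encoded by Oaz1 and Oaz2, bind ornithine decarboxylase and send it to the proteasome, and the antizyme inhibitor (Azin1), a relative of the decarboxylase without its activity, binds antizyme instead. In male mouse kidney Odc1 is known as an androgen-responsive gene of the proximal tubule, and in mouse models of kidney injury Sat1 and Smox are known as injury-responsive genes.

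The stretches upstream of the start sites of Smox, Sms and Sat1 are shown because the DXZ and saline values did not overlap for Smox and Sms, while Sat1 acts beside Smox on the same substrate. The letters come from RefSeq promoter windows on GRCm38.p6, which hold 8 of the 10 genes. Each is written 5′ to 3′ on the gene's own strand, and capitals mark matches to any of 6 searched motifs. The Smox stretch (chr2:131491654-131491763, plus strand) is the part of its window that no annotated UTR covers, and ends 99 bases before the RefSeq start site. That start site lies 366 bases inside Smox by the gene coordinates given below. The stretch and its whole window are therefore within the annotated gene and not upstream of it. The Sms (chrX:157492288-157492537, minus strand) and Sat1 (chrX:155216450-155216699, minus strand) windows are the full 250 bases before the start site.
Smox: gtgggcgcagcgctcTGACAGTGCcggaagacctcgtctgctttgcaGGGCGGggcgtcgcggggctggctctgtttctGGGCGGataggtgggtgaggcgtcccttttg
Sms: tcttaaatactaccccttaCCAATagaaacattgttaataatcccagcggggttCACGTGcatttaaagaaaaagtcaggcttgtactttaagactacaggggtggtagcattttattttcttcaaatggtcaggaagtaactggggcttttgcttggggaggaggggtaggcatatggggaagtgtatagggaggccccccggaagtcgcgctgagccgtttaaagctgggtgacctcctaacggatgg
Sat1: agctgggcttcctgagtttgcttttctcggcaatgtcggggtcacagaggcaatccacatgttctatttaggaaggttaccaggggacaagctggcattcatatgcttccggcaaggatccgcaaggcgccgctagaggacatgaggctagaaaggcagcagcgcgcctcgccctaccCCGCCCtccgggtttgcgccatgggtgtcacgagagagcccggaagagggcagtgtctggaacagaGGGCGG

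Both strands were searched for the AP-1 motif TGANTCA, the antioxidant response core TGACNNNGC, the E-box CACGTG, the TATA box TATAAA, the CCAAT box CCAAT and the GC box GGGCGG. In its 250-base window Smox had 1 match to the antioxidant response core, starting 193 bases before the start site, and 6 GC boxes. Of 32851 promoter windows of the same length, 10.2% held the antioxidant response core and 32.7% a GC box. The Sms window shown, at the outer of its RefSeq start sites, had 1 E-box and 1 CCAAT box, held by 6.02% and 33.9% of all windows. A second Sms window in RefSeq, before a start site 919 bases inside the gene, had neither of these and 4 GC boxes. Sat1 had 2 GC boxes and no match to the other 5 motifs. These matches describe letters and not binding. The GC content of the windows was 68.0% for Smox, 47.2% for the Sms window shown, 75.2% for the inner Sms window and 59.6% for Sat1, against a median of 52.4% over all promoter windows.

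Among the 10 genes Smox was the one that stood apart: its mean level was 3.10-fold higher in DXZ than in saline in the fit across all genes, and 8 of the other 9 had overlapping groups. All 10 passed the filter on low counts, and their counts per library ran from 204 for Smox to 15812 for Odc1. Calls were made by edgeR's quasi-likelihood test over 15351 genes at a Benjamini-Hochberg adjusted p below 0.05. Only Smox was called, and it was higher in DXZ, where 5.56% of all tested genes were called in either direction, 3.24% higher and 2.31% lower. The groups did not overlap for 2 of the 10 genes, Smox and Sms, where they did not overlap for 24.1% of all tested genes. Smox was on the higher side, with 12.8% of all tested genes, and Sms on the lower side, with 11.3%. The median log2 fold change was -0.03 over the 10 genes and 0.01 over all tested genes, and the median size of the change, whatever its sign, was 0.14 over the 10 and 0.26 over all. Since the genes were listed with these differences known, nothing is drawn from the counts.

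**Figure D1:**
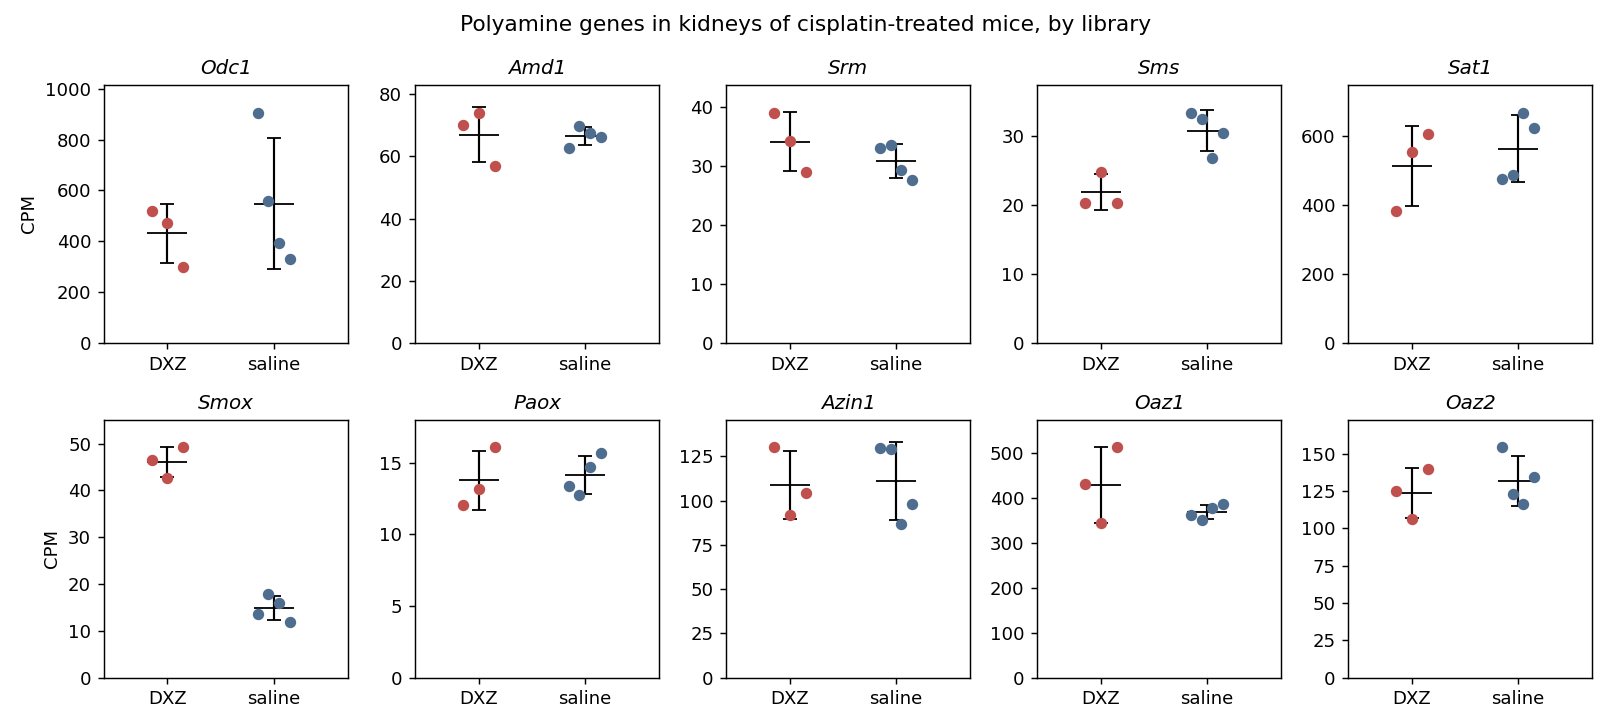
Level of each gene in every library, in CPM on linear axes that start at 0. Points are libraries (3 DXZ, 4 saline), horizontal lines are means and bars are 1 SD. The Smox points of the groups are far apart, the Sms points are apart by less, and the other 8 panels overlap.

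Smox, spermine oxidase (ENSMUSG00000027333, chromosome 2, 131491496 to 131525922, plus strand), had 46.4, 42.6 and 49.2 CPM in DXZ 1, 2 and 3, against 13.6, 17.8, 16.0 and 11.99 CPM in saline 1 to 4. The lowest DXZ library was above the highest saline library, and the DXZ libraries lay close together. It averaged 46.1 ± 3.29 CPM in DXZ (SD, n = 3) and 14.9 ± 2.59 CPM in saline (SD, n = 4), a log2 fold change of 1.63 (SE 0.15). Of the 15351 tested genes 176 had a larger fitted increase. Smox was called under 18 of 19 alternative settings, which all re-use these libraries and are no independent support. The exception was the fit without DXZ 2, where its log2 fold change was 1.67 and 1 gene was called in all. Without saline 4, where 4 genes were called in all, Smox was among them at a log2 fold change of 1.54. Without saline 1 and DXZ 1, a setting in which 1332 genes were called in all, it was called at 1.59. The increase was seen beside the higher injured tubule and lower proximal tubule markers given above, and their part in it was not tested.

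Paox, the oxidase of the acetylated route (chromosome 7, 140115799 to 140137224), had 12.004, 13.2 and 16.1 CPM in DXZ libraries, against 13.4, 12.7, 14.7 and 15.7 CPM in saline libraries. The groups overlapped fully, and the log2 fold change was -0.04 (SE 0.15). In FPKM, counts per gene length and library size, Smox was above Paox in every DXZ library. In saline it was above Paox by less in saline 1, 2 and 3, and just below it in saline 4. The ratio of Smox to Paox in FPKM was 4.87, 4.08 and 3.86 in DXZ libraries, against 1.28, 1.77, 1.38 and 0.96 in saline libraries.

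Sat1, the spermidine and spermine acetyltransferase (chromosome X, 155213132 to 155216449), had 383, 551 and 605 CPM in DXZ libraries, against 474, 486, 667 and 622 CPM in saline libraries. DXZ 1 was the lowest of all 7 libraries, and the other DXZ libraries lay within the saline range. The log2 fold change was -0.13 (SE 0.20), and 0.04 without DXZ 1. Per gene length Sat1 was the most abundant of the 10 genes in saline, at 202 ± 35.2 FPKM (SD, n = 4), and likewise in DXZ, at 184 ± 43.2 FPKM (SD, n = 3). The ratio of Smox to Sat1 in FPKM averaged 0.0664 ± 0.0172 in DXZ (SD, n = 3) and 0.0194 ± 0.00530 in saline (SD, n = 4).

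Sms, spermine synthase (chromosome X, 157443855 to 157492287), had 20.3, 24.9 and 20.4 CPM in DXZ libraries, against 33.4, 32.5, 26.8 and 30.5 CPM in saline libraries. All DXZ libraries lay below all saline libraries, but the gene was not called (log2 fold change -0.50, SE 0.12). DESeq2, an alternative tool that called 2116 genes in all, called it lower. The processed pseudogene Sms-ps matches the Sms transcript at 100% of its 1101 bases and had 106 to 216 counts per library, against 345 to 583 counts for Sms, so the split of reads between them is uncertain. With Sms-ps counts added, a setting chosen after seeing the data, the level was 28.9 ± 2.80 CPM in DXZ (SD, n = 3) and 39.3 ± 5.17 CPM in saline (SD, n = 4). The groups then still did not overlap, the lowest saline library being at 33.3 CPM and the highest DXZ library at 31.9 CPM, and the log2 fold change was -0.44. Without saline 1 and DXZ 1 it was -0.41 on the counts as deposited. The proximal tubule sums were also lower in all DXZ libraries, and 3 thick limb and distal tubule markers were called lower. All 8 endothelial markers had a negative log2 fold change, and 0 were called. The part of these cell types in the Sms values was not tested.

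Odc1, ornithine decarboxylase (chromosome 12, 17544794 to 17551505), had 520, 473 and 300 CPM in DXZ libraries, against 906, 558, 393 and 331 CPM in saline libraries. It varied more between replicates than any other of the 10 genes, with a coefficient of variation of 26.8% in DXZ and 47.1% in saline. Saline 1 was the highest library, and its proximal tubule markers also summed highest, at 44958 CPM. The markers differed within that sum, of which Kap alone made up 18073.5 CPM. Slc34a1 was also highest in saline 1, at 4332 CPM, while Pck1 was lowest there of all 7 libraries, at 4131 CPM. The log2 fold change was -0.35 (SE 0.36), and 0.01 without saline 1. A difference between the groups in Odc1 was therefore not detectable against the spread between libraries.

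Amd1 and Srm, the other synthetic genes, lay close together in the groups. Srm (chromosome 4, 148591503 to 148594993) had 39.0, 34.2 and 29.0 CPM in DXZ libraries, against 33.0, 33.5, 29.2 and 27.5 CPM in saline libraries (log2 fold change 0.15, SE 0.13). Amd1 (chromosome 10, 40287458 to 40302186) had 70.0, 74.1 and 56.9 CPM in DXZ libraries, against 62.5, 69.8, 67.4 and 66.3 CPM in saline libraries (log2 fold change 0.01, SE 0.11). For both genes the groups overlapped. Amd1 is uncertain because its paralogue Amd2 matches its transcript at 99.6% over 3202 bases. Amd2 had 14 to 65 counts per library, against 964 to 1242 counts for Amd1, and adding the copies, a setting chosen after seeing the data, left the log2 fold change of Amd1 at 0.01. The ratio of Srm to Sms in FPKM was 7.22, 5.18 and 5.35 in DXZ libraries and 3.71, 3.88, 4.09 and 3.39 in saline libraries, with no overlap.

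The antizyme mRNAs are read through a programmed shift of frame at the stop codon of the first frame, which polyamines promote. That site is shown for Oaz1 and Oaz2 because it is the feature through which their protein output is controlled, and read counts cannot show it. Capitals mark the last codon of the first frame and its stop codon in the annotated mouse transcripts (GENCODE M21).
Oaz1: cggtggtgcTCCTGAtgtccctcacccacc
Oaz2: ctgtggtgcTCCTGAtgcccctcacccact
The windows of 30 bases were identical at 27 positions. Oaz1 (chromosome 10, 80826656 to 80829290) had 431, 345 and 513 CPM in DXZ libraries, against 363, 351, 378 and 386 CPM in saline libraries (log2 fold change 0.22, SE 0.14). DXZ 1 and DXZ 3 were above all saline libraries and DXZ 2 was below them all. Oaz2 (chromosome 9, 65668001 to 65690300) had 125, 106 and 140 CPM in DXZ libraries, against 154, 123, 116 and 134 CPM in saline libraries (log2 fold change -0.09, SE 0.14). Its groups overlapped in part, with DXZ 2 the lowest library and saline 1 the highest. Azin1 (chromosome 15, 38487427 to 38519266) had 130, 92.0 and 104 CPM in DXZ libraries, against 129.7, 129.3, 86.9 and 97.9 CPM in saline libraries (log2 fold change -0.03, SE 0.18). The pseudogenes Oaz1-ps and Oaz2-ps, at 16 to 38 and 19 to 43 counts per library, were small beside the 1759 counts or more of either antizyme gene. For Azin1 the libraries fell near 130 CPM or near 90 to 104 CPM in both groups.

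**Figure D2:**
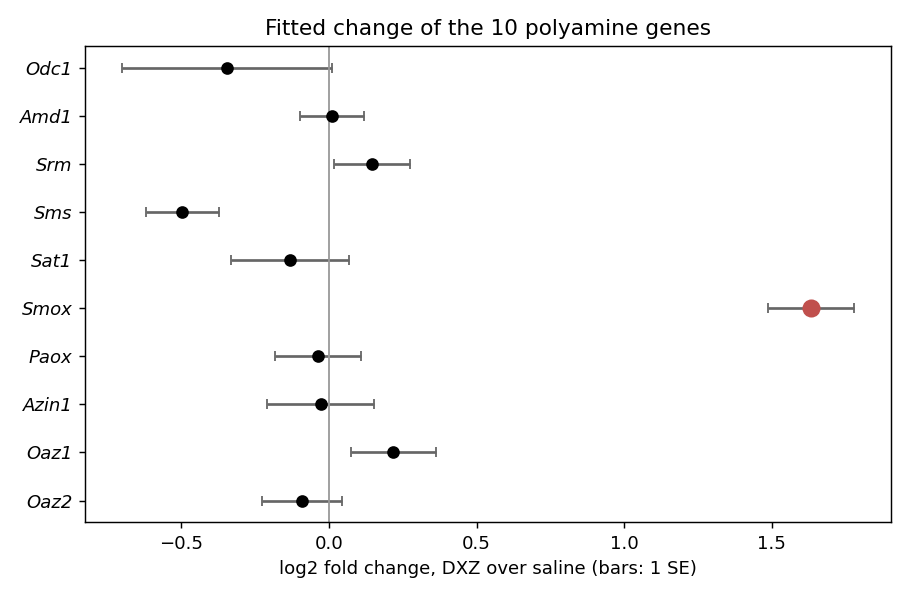
Fitted log2 fold change, DXZ over saline, for the 10 genes, with bars of 1 SE. Smox, in red, was the gene called, at 1.63; Sms lay at -0.50 and the other 8 between -0.35 and 0.22.

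Set in order per gene length, the levels in DXZ were 184 FPKM for Sat1, 167 for Oaz1, 125 for Odc1, 41.0 for Oaz2, 21.1 for Srm, 18.8 for Amd1, 17.2 for Azin1, 11.7 for Smox, 3.61 for Sms and 2.78 for Paox. The saline order was Sat1 at 202 FPKM, Odc1 at 160, Oaz1 at 144, Oaz2 at 43.9, Srm at 19.2, Amd1 at 18.7, Azin1 at 17.7, Sms at 5.10, Smox at 3.80 and Paox at 2.86. In DXZ the ranges of Sat1, Oaz1 and Odc1 overlapped each other; in saline Odc1 overlapped both of the others, and every Sat1 value was above every Oaz1 value. Srm, Amd1 and Azin1 overlapped each other in both groups. Smox stood above Sms in every DXZ library, at a ratio of 2.65 to 3.73, and below it in every saline library, at 0.61 to 0.92. Summed per gene length, the 3 catabolic genes (Sat1, Smox, Paox) came to 198 ± 43.8 FPKM in DXZ (SD, n = 3) and 208.5 ± 35.3 FPKM in saline (SD, n = 4), so the Smox difference is small beside the level and spread of Sat1.

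Genes whose profile over the 7 libraries lay nearest to Smox, by the root mean square difference of mean-centred log2 CPM among 10724 candidates, were Cldn4 (0.17), Insyn1 (0.19) and Gch1 (0.21). Cldn4, a tight junction claudin, had 286, 286 and 275.5 CPM in DXZ libraries, against 88.3, 87.5, 105 and 62.2 CPM in saline libraries. Gch1, the first enzyme of tetrahydrobiopterin synthesis, had 15.3, 11.6 and 13.8 CPM in DXZ libraries, against 4.30, 7.43, 5.99 and 3.64 CPM in saline libraries. Nearest to Sat1 were Cdc37l1 (0.07), Gpd1l (0.08) and Lyrm1 (0.08), and nearest to Odc1 were Tmtc4 (0.16), Npr2 (0.17) and Tk1 (0.17). The SD of the profile itself on the log2 scale was 0.90 for Smox, 0.28 for Sat1 and 0.54 for Odc1. These are likenesses over 7 libraries of 2 groups and carry no test.

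Genes around the 10 were taken from a list of 53 chosen by function: the supply of ornithine, the supply and salvage of S-adenosylmethionine, homologues and other control factors, transport, oxidation of amines and aldehydes, and the hypusine modification. Of these 48 passed the filter on low counts, and by edgeR's test 2 were called higher (Azin2 and Myc) and 2 lower (Ahcy and Hnmt), against 3.24% and 2.31% of all tested genes. The median log2 fold change of the 48 was 0.07. At an unadjusted p under 0.05 there were 9 higher and 11 lower, where 14.0% of all tested genes were higher and 11.4% lower at that threshold. DESeq2 called 5 higher and 9 lower, where it called 7.77% of all genes with an adjusted p higher and 6.30% lower. Limma-voom called 4 higher and 2 lower, where it called 3.46% of all tested genes higher and 2.03% lower. The groups did not overlap for 14 of the 48, where they did not overlap for 24.1% of all tested genes.

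Azin2, the second antizyme inhibitor, rose to 12.3, 13.2 and 15.9 CPM in DXZ libraries, against 7.05, 9.51, 8.49 and 8.29 CPM in saline libraries (log2 fold change 0.73, SE 0.16, adjusted p = 0.0428 by edgeR). Myc, a transcription factor for which Odc1 is a classical target, rose to 39.0, 47.8 and 48.1 CPM in DXZ libraries, against 16.5, 31.8, 21.5 and 26.9 CPM in saline libraries (log2 fold change 0.90, SE 0.21, adjusted p = 0.0492 by edgeR). In neither gene did the groups overlap. Ahcy, which clears S-adenosylhomocysteine, fell to 252, 255 and 353 CPM in DXZ libraries, against 436, 423, 427 and 464 CPM in saline libraries (log2 fold change -0.61, SE 0.14, adjusted p = 0.0493 by edgeR). Hnmt, which methylates histamine, fell to 11.9, 8.22 and 12.1 CPM in DXZ libraries, against 18.1, 17.7, 16.8 and 16.9 CPM in saline libraries (log2 fold change -0.69, SE 0.16, adjusted p = 0.0463 by edgeR). All 4 were near the threshold: with 1 library left out in turn, Azin2 and Hnmt stayed called only without DXZ 1, Ahcy only without DXZ 3, and Myc only without DXZ 1 or saline 2. Without saline 1 and DXZ 1 together, Azin2 and Myc stayed called and Ahcy and Hnmt did not. Over all 19 settings the adjusted p ran from 0.00313 to 0.120 for Azin2, 0.00339 to 0.141 for Myc, 0.00144 to 0.149 for Ahcy and 0.00238 to 0.119 for Hnmt.

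Ornithine supply, transport and the hypusine modification had 0 genes called by edgeR's test after adjustment. Among 6 ornithine supply genes 3 were lower at an unadjusted p under 0.05 (Oat, Gatm and Slc25a15, against 11.4% of all tested genes). DESeq2 called 2 lower (against 6.30% of all genes) and limma-voom 1 lower (against 2.03%). Oat, which turns ornithine towards glutamate, had 211 ± 19.3 CPM in DXZ (SD, n = 3) and 303 ± 51.5 CPM in saline (SD, n = 4), with no overlap (log2 fold change -0.52, SE 0.15, adjusted p = 0.0835 by edgeR). Gatm, which makes guanidinoacetate and ornithine, and which was picked out after its values were seen, had 43.5, 29.6 and 23.4 CPM in DXZ libraries, against 591, 126, 92.7 and 139 CPM in saline libraries. Its groups did not overlap and saline 1 was the highest library, but it was not called (log2 fold change -2.88, SE 0.70, adjusted p = 0.0540 by edgeR). It was called lower by DESeq2 and limma-voom, and by edgeR with no filter on low counts, without saline 1, and without saline 1 and DXZ 1. Arg2, the mitochondrial arginase that makes ornithine, had 85.7, 182 and 224 CPM in DXZ libraries, against 8.71, 66.4, 116 and 92.6 CPM in saline libraries (log2 fold change 1.21, SE 0.69, adjusted p = 0.314 by edgeR). Saline 1, the library highest in Odc1 and Gatm, was the lowest in Arg2. Without saline 1 and DXZ 1 Oat and Arg2 were called, Oat at a log2 fold change of -0.65 (adjusted p = 0.0440 by edgeR) and Arg2 at 1.15 (adjusted p = 0.0297 by edgeR). Agmat, named for its agmatine-hydrolysing relatives in bacteria, averaged 1.36 CPM in DXZ and 2.30 CPM in saline (log2 fold change -0.76, adjusted p = 0.336 by edgeR).

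Among 9 genes that supply or salvage S-adenosylmethionine Ahcy was the one called, where 2.31% of all tested genes were called lower. Of the 9, 6 had a positive and 3 a negative log2 fold change. At an unadjusted p under 0.05, 2 were higher and 2 lower (against 14.0% and 11.4% of all tested genes). DESeq2 called 1 higher and 2 lower (against 7.77% and 6.30% of all genes), and limma-voom called 1 higher (against 3.46%). Mat2a, which makes S-adenosylmethionine outside the liver, had 305 ± 43.8 CPM in DXZ (SD, n = 3) and 432 ± 36.5 CPM in saline (SD, n = 4), with no overlap (log2 fold change -0.50, SE 0.13, adjusted p = 0.0648 by edgeR). Mtap, which salvages the by-product of spermidine and spermine synthesis, was at a log2 fold change of 0.21 (SE 0.17, adjusted p = 0.476 by edgeR). Sat2, a relative of Sat1 in the class of homologues and control factors, was at -0.30 (SE 0.18, adjusted p = 0.344 by edgeR). Aoc1, the diamine oxidase that degrades putrescine and histamine, had 23.2, 10.2 and 11.8 CPM in DXZ libraries, against 8.94, 20.5, 15.03 and 19.9 CPM in saline libraries, with wide overlap (log2 fold change -0.09, SE 0.36, adjusted p = 0.903 by edgeR). Its class of amine and aldehyde oxidation had 11 tested genes, of which Hnmt, given above, was called lower (against 2.31% of all tested genes). At an unadjusted p under 0.05, 1 of the 11 was higher and 3 lower (against 14.0% and 11.4%). DESeq2 called 2 lower (against 6.30% of all genes) and limma-voom 1 lower (against 2.03%).

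Of 4 hypusine genes, Eif5a, the translation factor that carries the spermidine-derived residue, had 679 ± 36.3 CPM in DXZ (SD, n = 3) and 547 ± 15.9 CPM in saline (SD, n = 4). Its groups did not overlap, but it was not called (log2 fold change 0.31, SE 0.10, adjusted p = 0.111 by edgeR). It was the 1 gene of the class with an unadjusted p under 0.05 and the 1 gene that DESeq2 called, and limma-voom called 0. Dhps and Dohh, the enzymes that make hypusine, had log2 fold changes of 0.18 for Dhps (adjusted p = 0.309 by edgeR) and 0.38 for Dohh (adjusted p = 0.248 by edgeR).

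Among 12 transport genes 2 were higher and 3 lower at an unadjusted p under 0.05, against 14.0% of all tested genes higher and 11.4% lower. DESeq2 called 1 higher and 3 lower (against 7.77% and 6.30% of all genes), and limma-voom called 1 higher (against 3.46%). Slc22a3, which encodes an organic cation transporter and was picked out after its values were seen, had 5.48 ± 1.60 CPM in DXZ (SD, n = 3) and 2.14 ± 0.831 CPM in saline (SD, n = 4), with no overlap. It was not called (log2 fold change 1.35, SE 0.34, adjusted p = 0.0596 by edgeR), but DESeq2 and limma-voom called it, as did edgeR with no filter on low counts, without DXZ 1 and without saline 3. Slc3a2, a heavy chain of amino acid exchangers linked to polyamine export, had 308 ± 45.6 CPM in DXZ (SD, n = 3) and 291 ± 29.1 CPM in saline (SD, n = 4), at a log2 fold change of 0.08 (adjusted p = 0.757 by edgeR).

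**Figure D3:**
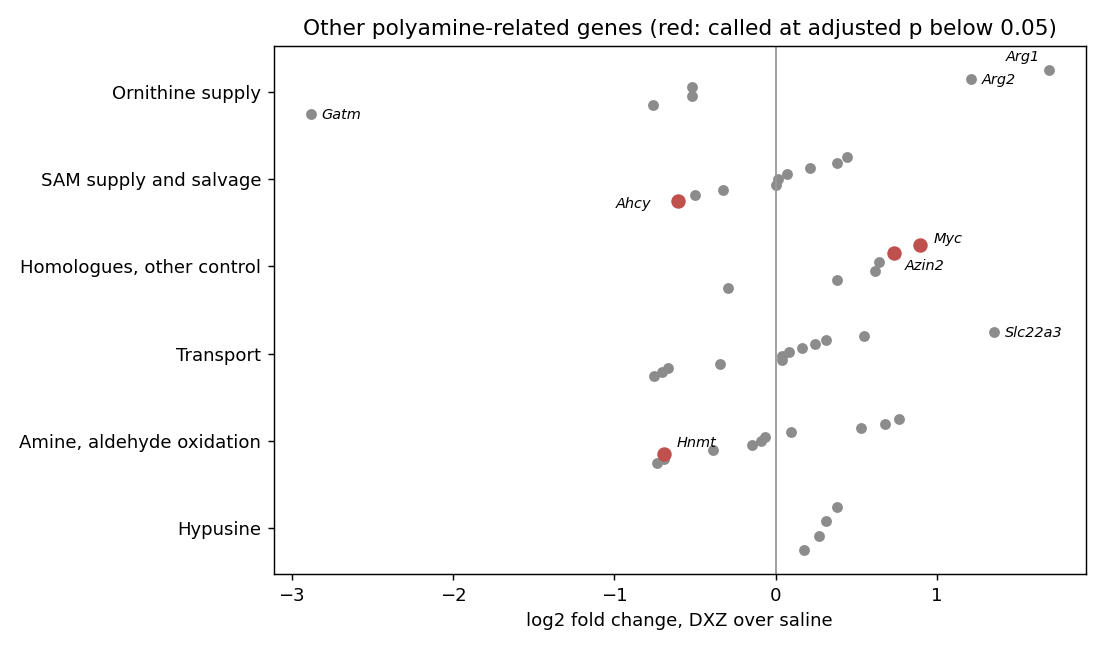
Log2 fold change, DXZ over saline, of the 48 other polyamine-related genes that were tested, by class. Each point is a gene; red points were called (Azin2 and Myc higher, Ahcy and Hnmt lower), and names are given for these and for genes beyond 1 log2 unit, which were not called (Arg1 rests on 0 to 33 counts per library).

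**Figure D4:**
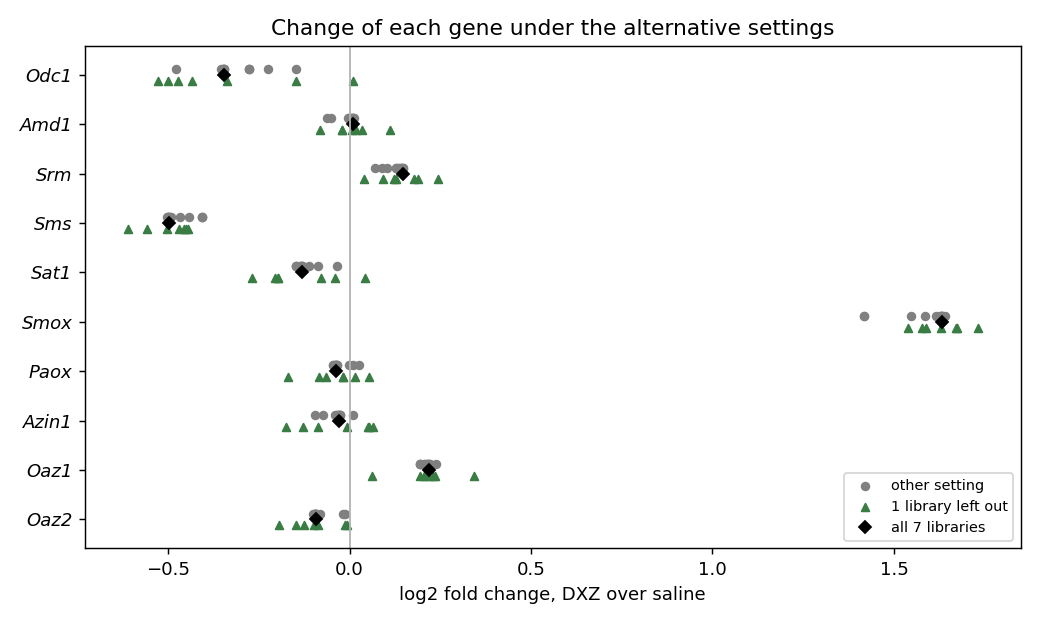
Log2 fold change of each of the 10 genes with all 7 libraries (diamonds), with 1 library left out (triangles) and under the other settings (grey points). All Smox values lie between 1.42 and 1.73, and Sat1, Odc1, Amd1, Paox and Azin1 fall on both sides of 0.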

How the data were processed

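The authors deposited raw read counts for each gene, as whole numbers without normalization. Their deposited FPKM values equal those counts over gene length and a library constant that follows median-of-ratios library sizes, so they are no independent measurement. Ratios and rankings between genes use them, and so depend on the deposited gene lengths. For Smox that length is 3894 bases, while its longest GENCODE M21 transcript has 2299 bases. HISAT2, StringTie and mm9 are named, with no roles, in the submitters' processing notes. Coordinates instead match GENCODE M21 (GRCm38) for 98.3% of 54409 shared identifiers and for all 10 genes, and are given on that build. How reads were counted, and whether by strand, was not given in the sources used here, so genes with overlapping or antisense partners are uncertain.

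Genes were filtered by filterByExpr, scaled by TMM and fitted in edgeR 4.0.16 (R 4.3.3), DXZ against saline, group only. Each SE is the log2 fold change over the square root of F. Alternatives were median-of-ratios scaling, other filters, robust dispersions, DESeq2 1.42.0, limma 3.58.1 (voom, or log2 FPKM), omitted libraries, the replicate number as a block, and near-copy counts added, the last chosen after seeing the data. Code was tested on simulated data. Copies were aligned with blastn 2.17.0+. Replicate libraries had a chi-square per degree of freedom of 15.1 to 99.1, where sampling noise alone gives about 1.

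The 10 genes and all lists were chosen with earlier results of these data known. Named genes are the 10, every called pathway gene, 13 fixed by function (Azin2 and Myc, also called, among them), and the 3 nearest profiles of Smox, Sat1 and Odc1 among genes of at least 5 CPM. Gatm, Slc22a3 and Slc25a15 are outside this rule. Some genes of the transport class are not reported here by name.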

Additional observations from a re-analysis of the deposited data

Results flagged for a closer look

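Across the 25 genes examined for a library far from its group, 1 was found among the 4 saline libraries. Mat2a was at 378 CPM in saline 3, while the other saline libraries lay between 445 and 456 CPM. About 1 group in 20 is expected to show such a gap by chance. The saline 3 value lay towards the DXZ libraries, which were at 266, 296 and 352 CPM, and Mat2a was not called.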

How the results depend on the processing

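Smox kept its direction under all 19 settings (log2 fold change 1.42 to 1.73) and its call under 18. These settings re-use the libraries whose differences were known when Smox was listed, so they are no independent support. Of the 10 genes, DESeq2 called 2, and 0 to 1 were called with 1 library left out. Over all genes, 853 were called, against 2116 by DESeq2, 145 by limma on unfiltered log2(FPKM + 1), 1332 without saline 1 and DXZ 1, 85 with the replicate block and 1 to 1574 with 1 library left out. Of the other pathway genes 4 were called, against 2 with median-of-ratios scaling, 8 with no filter, 14 by DESeq2, 0 by limma on unfiltered log2(FPKM + 1), 9 without saline 1 and DXZ 1, 0 with the replicate block and 0 to 8 with 1 library left out. The cause was not tested. The labels do not say that equal replicate numbers pair libraries. The correlations of same-numbered deviations were 0.26, -0.09 and 0.23, and each DXZ library correlated best with a saline library of another number. So few pairs cannot decide whether the numbers carry a pairing, since deviations within a group depend on each other.

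Log2 fold changes near 0 turned sign. With 1 library left out the ranges were -0.27 to 0.041 for Sat1, -0.53 to 0.0082 for Odc1, -0.18 to 0.066 for Azin1, -0.17 to 0.053 for Paox, -0.082 to 0.11 for Amd1, -0.55 to 0.11 for Aoc1 and -0.037 to 0.18 for Slc3a2. Limma-voom gave 0.011 for Azin1 and -0.061 for Amd1. Amd1 was at -0.0026 by limma on log2(FPKM + 1), filtered or not, at -0.0031 on log2(FPKM + 0.1) and at -0.052 without saline 1 and DXZ 1. Paox was at 0.025 without saline 1 and DXZ 1 and at 0.0098 with the replicate block. No scaling moved the median of all genes by more than 0.1. Depth was not limiting for the 10 genes, whose lowest count was 204; 3 and 4 libraries a group limit the precision.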
